A study of Homo sapiens with 15 samples.

Results

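SYK and SRC are the 2 non-receptor tyrosine kinase genes examined here, out of 84 target genes on a metastasis PCR array run on breast cancer cells exposed to macrophage conditioned medium (CM). The pair was chosen by the measured fold changes themselves, because with the reference genes used below their RNA was above the unstimulated level in every comparison of MDA-MB-231 cells and below it in every comparison of MDA-MB-468 cells. The fold changes between CM and unstimulated cells are therefore given as a description, and no test was run on them. SRC met this description by a small margin and lost it under most other references, whereas SYK kept it under each one tried.

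SYK and SRC are cytoplasmic kinases that carry signals from receptors at the cell surface. SYK, the spleen tyrosine kinase, binds phosphorylated immunoreceptor motifs and is best known for antigen and Fc receptor signaling in B cells and macrophages. It is also made in breast epithelium, where its loss in part of invasive carcinomas gave it the name of a metastasis suppressor. SRC, the founding member of the SRC family, acts downstream of integrins and growth factor receptors, phosphorylates focal adhesion proteins and promotes motility. SRC-family kinases can phosphorylate SYK or its receptor motifs, so the pair lies on a shared route in many cells.

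The series comprises 15 samples of total RNA from 2 established human triple-negative breast cancer lines, MDA-MB-231, which is mesenchymal in character, and MDA-MB-468, a basal line with epithelial character. For MDA-MB-231 the labels list 3 samples exposed to CM and 4 unstimulated ones, and for MDA-MB-468 they list 4 of each. The CM came from human monocyte-derived macrophages (MDM) that had themselves been polarized by medium of one of these lines, and was applied for 24 h according to the series description, while the study's legends give a shorter time. The control cells are labelled only as unstimulated, and nothing says whether separate samples are separate cultures.

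Each deposited value is the ratio of a CM sample to an unstimulated sample, 3 ratios per line, named below by the number of the unstimulated control in the column header (2, 3 or 4). In each line the headers give the same CM sample number for controls 3 and 4, so the 3 ratios may not be independent. The MDA-MB-468 headers also give MDA-MB-231 as the control, whereas the study describes the same comparison as one against the control group of that line. What these ratios were divided by is not settled by the files. CDH1, the E-cadherin gene known to be expressed in MDA-MB-468 and silent in MDA-MB-231, had a geometric mean fold change in the MDA-MB-468 columns of 1.39, from 0.696 to 2.26. RB1 and SMAD4, known to be deleted in MDA-MB-468, had fold changes there of 0.0672 and 0.172, and CDKN2A, known to be deleted in MDA-MB-231, had one of 0.807, from 0.496 to 1.07. A ratio of MDA-MB-468 to MDA-MB-231 cells, as the headers have it, would be low for RB1 and SMAD4, as these values were, but high for CDH1 and CDKN2A, which were not. SMAD4 had a fold change of 0.127 in the MDA-MB-231 columns as well, where both sides should hold the gene. These genes therefore did not settle the denominator. Every result on MDA-MB-468 below is read with that limit. Threshold cycles were not analysed here, so the abundance of SYK and SRC in either line is not given.

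All values below are log2 fold changes of CM over unstimulated cells, after division by the fold change of a reference gene, ACTB for the MDA-MB-231 cells and RPLP0 for the MDA-MB-468 cells, unless another reference is named. In MDA-MB-231, SYK had log2 fold changes of 1.74, 1.04 and 1.78 in the comparisons with controls 2, 3 and 4. The lowest of these corresponds to a fold change of 2.05 and the mean to 2.87, with an SD of 0.42 around the mean log2 value of 1.52 (n = 3). SYK in MDA-MB-468 had values of -0.72, -0.48 and -1.43 in the same order, with a mean of -0.88 ± 0.49 (SD, n = 3), a fold change of 0.545. The ranges of the lines did not overlap, and a gap of 1.52 on the log2 scale lay between the lowest value of MDA-MB-231 and the highest of MDA-MB-468.

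SRC stayed close to the level of ACTB in MDA-MB-231. Its log2 fold changes there were 0.074, 0.049 and 0.092, with a mean of 0.072 ± 0.022 (SD, n = 3), a fold change of 1.05. In MDA-MB-468 they were -0.061, -1.31 and -0.87, with a mean of -0.75 ± 0.64 (SD, n = 3), a fold change of 0.595. The comparison with control 2 was therefore near 1 while the other 2 were lower. The gap between the lines was 0.11, smaller than the SD of SRC within MDA-MB-468.

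**Figure D1:**
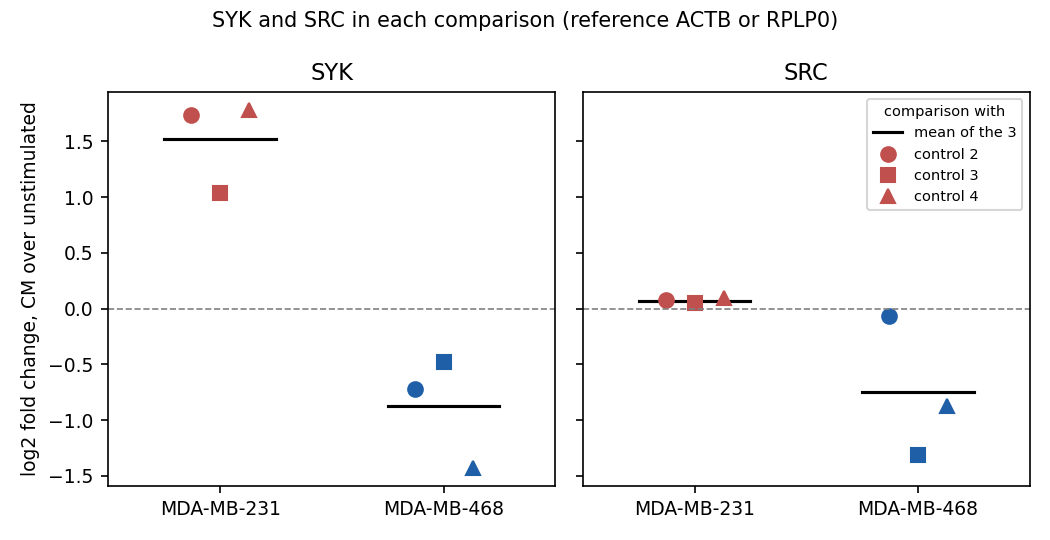
Log2 fold change of SYK (left) and SRC (right) after CM, over unstimulated cells, in the 3 comparisons of each line (symbols give the control number, bars the mean of the 3). SYK lies between 1.04 and 1.78 in MDA-MB-231 cells and between -1.43 and -0.48 in MDA-MB-468, and SRC lies within 0.1 of 0 in MDA-MB-231.

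A gene was counted as raised in a line when the geometric mean of its 3 fold changes exceeded 2 and each of them was above 1, and as lowered when that mean fell below 0.5 with all 3 fold changes under 1. SYK was raised in MDA-MB-231, as were 31% of all target genes, 26 of 84. It kept that call when all 3 fold changes had to exceed 2, which 23.8% of target genes passed. SYK was not lowered in MDA-MB-468, where 3.57% of target genes were and 27.4% were raised. That call depended on the reference. With the mean of the 5 housekeeping genes, the normalization of the deposited ratios, SYK was lowered there, at a fold change of 0.463. SRC was neither raised nor lowered in either line with these references.

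The pattern that chose the 2 genes, above 1 in all comparisons of MDA-MB-231 and below 1 in all of MDA-MB-468, was met by 3 of 84 target genes (3.57%), and the reverse pattern by 0. These counts depended on the reference, being 1 and 1 with ACTB or HPRT1, 2 and 1 with GAPDH, 2 and 3 with the median target gene, 5 and 0 with RPLP0, 8 and 0 with the mean of all 5 reference genes, and 20 and 0 with B2M. The remaining gene was CTSK, which encodes the collagen-degrading protease cathepsin K, with mean log2 fold changes of 0.43 in MDA-MB-231 cells and -0.53 in MDA-MB-468. How far a gene lay inside the pattern was measured by its value closest to 0. This was 0.48 for SYK, 0.085 for CTSK and 0.049 for SRC. Just outside were CXCR4, a chemokine receptor, and DENR, a translation factor, both named after their values were seen, which missed by a value of -0.067 and of -0.088 in MDA-MB-231. SRC thus met the pattern by about as little as CXCR4 missed it.

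Because a reference gene shifts every value of a comparison, the 6 ratios were recomputed against each of the 5 housekeeping genes of the array on its own. For SYK all 15 values of MDA-MB-231 were above 0, from 1.04 with ACTB to 2.15 with B2M, and all 15 of MDA-MB-468 were below 0, from -3.06 with B2M to -0.010 with HPRT1. The opposite directions of SYK were therefore present under 5 of 5 references. With HPRT1, however, SYK in the comparison of MDA-MB-468 with control 2 was at the level of unstimulated cells, its value being -0.010. The mean of SYK ran from 1.49 to 1.72 in MDA-MB-231, and it was raised there under each of the 5 references.

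In MDA-MB-468 the mean of SYK was -0.65 with ACTB, -0.66 with GAPDH, -0.57 with HPRT1 and -0.88 with RPLP0. With B2M it was -2.78, and of the 5 single genes this was the one under which SYK was lowered, as was SRC. With the mean of the 5 genes it was -1.11, with fold changes of 0.529, 0.598 and 0.314 for controls 2, 3 and 4, and SYK was lowered as well. B2M, which encodes the light chain of MHC class I, had log2 fold changes of 2.22, 1.87 and 1.63 relative to RPLP0 in this line, and its use as the reference moves all other genes down by the same amount.

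For SRC the 15 values of MDA-MB-231 ran from -0.32 to 0.54, with 12 above 0. In MDA-MB-468 they ran from -3.18 to 0.65, with 12 below 0. The 3 values above 0 in MDA-MB-468 all came from the comparison with control 2, which gave 0.10 with ACTB, 0.29 with GAPDH and 0.65 with HPRT1. Only RPLP0 gave opposite directions in every comparison, which is 1 of 5 references. The close agreement of SRC with ACTB in MDA-MB-231 was also particular to that reference. With GAPDH the values were -0.32, 0.54 and -0.094. In MDA-MB-468 the comparisons with controls 3 and 4 were below 0 under all 5 references, being closest to 0 with ACTB, at -1.12 and -0.57.

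**Figure D2:**
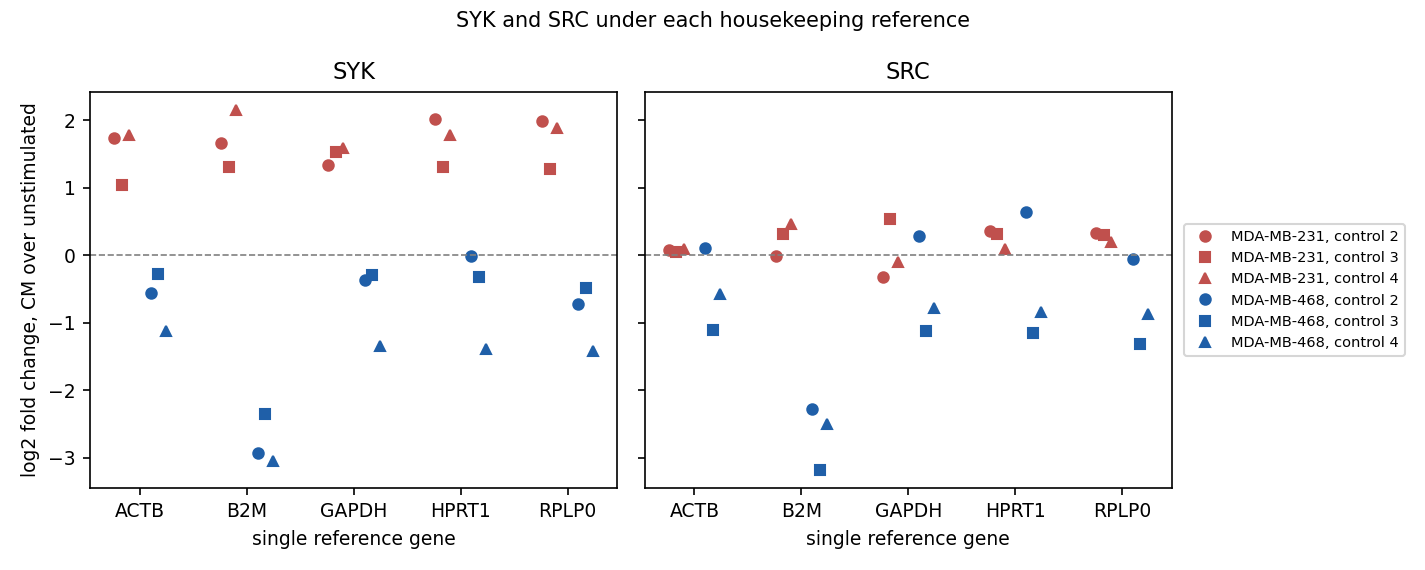
Log2 fold change of SYK (left) and SRC (right) after CM under each of the 5 housekeeping genes as the single reference (x axis), with 1 symbol per comparison, red for MDA-MB-231 and blue for MDA-MB-468. All red points of SYK lie at or above 1.04 and all blue points below 0, while those of SRC cross 0 in both lines.

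The position of a gene among the other target genes of the same comparison does not depend on any reference. Ranked from the highest fold change, SYK was at position 12, 23 and 18 of 84 in MDA-MB-231 with controls 2, 3 and 4. In MDA-MB-468 it was at position 79, 77 and 66. SYK was thus in the upper part of the array in each comparison of the first line and in the lower part in each of the other. Set against the median of the 84 genes, SYK stood at 1.37, 1.08 and 1.39 in MDA-MB-231 cells and at -0.89, -0.83 and -0.50 in MDA-MB-468.

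SRC was at position 54, 39 and 64 in MDA-MB-231 cells and at 59, 82 and 39 in MDA-MB-468, and these ranges overlapped. Relative to the median of the 84 genes it stood at -0.29, 0.087 and -0.30 in MDA-MB-231 cells and at -0.23, -1.67 and 0.048 in MDA-MB-468. Measured in this way, SRC was apart from the other genes in 1 of 6 comparisons, that of MDA-MB-468 with control 3. In the comparison with control 4 the median of all target genes was itself -0.92, against 0.17 and 0.35 with controls 2 and 3. The positive PCR control wells, which hold a template that does not come from the cells, were also lowest with control 4, from -1.42 to -1.05. They stood between 0.95 and 1.06 with control 2 and between -0.030 and 0.28 with control 3, so over these controls their order was not that of the median. Their part in the low SRC value with control 4 was not tested.

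**Figure D3:**
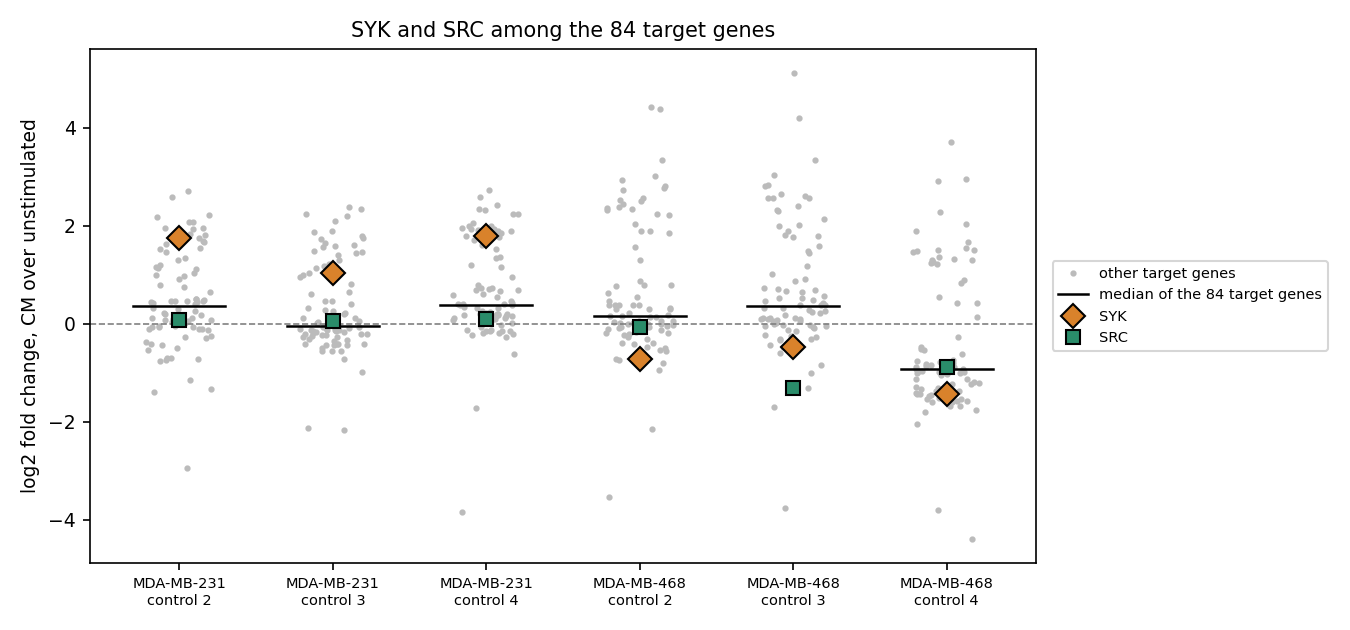
Log2 fold change of all 84 target genes (grey points, spread sideways at random) in each of the 6 comparisons, with SYK (orange diamonds), SRC (green squares) and the median of the 84 genes (black bars). SYK lies above the median by 1.08 to 1.39 in MDA-MB-231 cells and below it by 0.50 to 0.89 in MDA-MB-468, whereas SRC lies close to it except in MDA-MB-468 with control 3.

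On average, the log2 fold change of SYK was 2.40 higher in MDA-MB-231 than in MDA-MB-468. This was the second largest difference in that direction among the 84 genes, after RB1. For SRC the difference was 0.82, at position 15 of 84, while the median difference of all target genes was 0.27. SYK thus exceeded the median gene by 2.12 and SRC by 0.55. These excesses are the same under every reference by construction, because a reference shifts all genes of a comparison alike. Of the 84 target genes, 15.5% had all comparisons of MDA-MB-231 above all those of MDA-MB-468, SYK and SRC among them, and 8.33% had the reverse. Under ACTB, GAPDH or HPRT1 in both lines the values of SRC overlapped between the lines.

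SYK and SRC were also set against each other within a comparison, which needs no reference gene. The log2 fold change of SYK minus that of SRC was 1.67, 0.99 and 1.69 in MDA-MB-231, so the ratio of SYK to SRC RNA was 3.17, 1.98 and 3.23 times that of unstimulated cells. In MDA-MB-468 the difference was -0.66, 0.83 and -0.55. The 2 transcripts therefore moved apart in the same sense in each comparison of MDA-MB-231 but in different senses in MDA-MB-468. There the comparison with control 3, which had the highest SYK value, had the lowest SRC value.

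**Figure D4:**
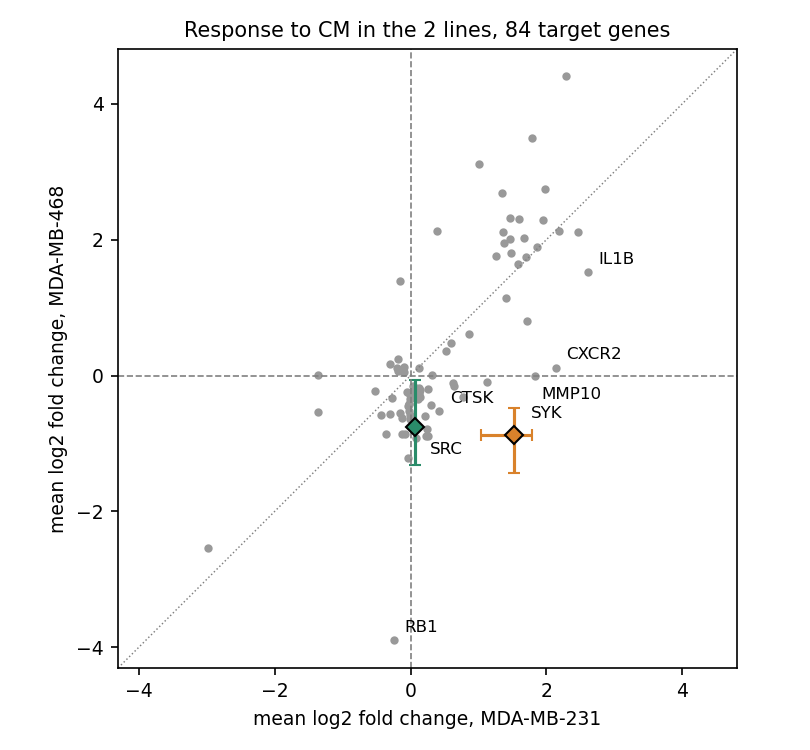
Mean log2 fold change after CM of the 84 target genes in MDA-MB-231 (x axis) and MDA-MB-468 (y axis), with the range over the 3 comparisons for SYK and SRC (bars) and the line of equal response (dotted). SYK, at 1.52 and -0.88, lies in the lower right part, where no other gene is beyond it on both axes, and SRC, at 0.072 and -0.75, lies beside a group of unlabeled genes.

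The spread of SYK between comparisons was 0.42 in MDA-MB-231, against a median SD of 0.34 over the 84 genes, and 0.49 in MDA-MB-468, against 0.70. That of SRC was the second smallest of the 84 in MDA-MB-231 with ACTB as the reference, and close to the median in MDA-MB-468. The reverse transcription control wells, which assay an RNA template that does not come from the cells, stood at 0.25, 0.46 and 0.78 in MDA-MB-231. The first and last of these were also the values of CDKN2A, the gene deleted in that line, in the same comparisons. With control 3 CDKN2A stood at 1.30, above SYK at 1.04. A gene known to be absent thus reached a ratio of that size, and how near SYK lay to the detection limit was not tested. SYK lay above the reverse transcription wells in all 3 comparisons of MDA-MB-231, by 1.49, 0.58 and 1.00. It lay below them in all 3 of MDA-MB-468, by 1.44, 0.79 and 1.16. SRC lay below these wells in all 6 comparisons. With these wells as the reference both genes were lowered in MDA-MB-468, at fold changes of 0.457 for SYK and 0.498 for SRC. As the wells shared values with CDKN2A in MDA-MB-231, and threshold cycles were not analysed, what they measured is not known.

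The genes whose 6 log2 fold changes followed those of SYK most closely were RB1, the retinoblastoma tumor suppressor, with a Pearson's r of 0.984 and a Spearman's rho of 0.943, the matrix metalloproteinase gene MMP10 (r = 0.977, rho = 1) and the chemokine receptor gene CXCR2 (r = 0.954, rho = 0.943). The 6 points share reference genes and possibly samples, and fall into the 2 lines, so these values mainly rank genes by a higher value in MDA-MB-231. The levels differed. MMP10 was raised in MDA-MB-231, with a fold change of 3.56, and was at 0.998 in MDA-MB-468. For CXCR2 the fold changes were 4.41 and 1.08. RB1 was at 0.841 in MDA-MB-231. Of these 4 genes, SYK was the one with every comparison above 1 in one line and below 1 in the other, the pattern for which it was chosen. Closest to SRC were IL1B, an inflammatory cytokine gene (r = 0.920, rho = 1), EWSR1, an RNA-binding protein gene (r = 0.810, rho = 0.771), and RB1 (r = 0.775, rho = 0.943), over the same 6 comparisons. IL1B was raised in both lines, so likeness to SRC was in the order of the values and not in their sign. SRC itself was only the gene in position 21 by its correlation with SYK.

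The array also holds genes of the routes in which SYK and SRC act, 22 of which were listed by role. Of these, 8 were raised and 0 lowered in MDA-MB-231, where 31% of all target genes were raised and 3.57% lowered. In the other line 10 were raised and 1 lowered, beside 27.4% and 3.57% of all target genes. With B2M as the reference this turned to 2 raised and 12 lowered. That reference moves every target gene of the line down by 1.91 on average, and the share of all target genes was not counted with it. These B2M counts are thus no result about the list. The median log2 fold change of the list was 0.22 in MDA-MB-231 cells and 0.29 in MDA-MB-468, beside 0.13 and -0.16 over all target genes. In all, 8 of the 22 were raised in both lines, that is, 8 of the 8 raised in MDA-MB-231. Over all target genes it was 21 of the 26 raised in MDA-MB-231, and SYK was among those raised there alone.

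All 3 growth factor ligands of the list were raised in both lines, as were 21 of all 84 target genes. HGF, the ligand of MET, reached fold changes of 3.44 in MDA-MB-231 cells and 11.3 in MDA-MB-468, IGF1 had 4.89 and 21.1, and VEGFA had 2.54 and 6.43. Among the 4 receptor kinases, FLT4, the VEGF-C receptor, was the 1 raised in MDA-MB-231, beside 31% of all target genes, and in MDA-MB-468, beside 27.4% (fold changes of 2.99 and 3.13), whereas EPHB2, FGFR4 and MET were neither raised nor lowered. MET, which can signal through SRC, had fold changes of 1.10 in MDA-MB-231 cells and 0.861 in MDA-MB-468.

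Of the 5 integrin, matrix and adhesion receptor genes, 3 were raised in MDA-MB-231 cells and 4 in MDA-MB-468, where the shares over all target genes were 31% and 27.4%. ITGB3, the integrin beta 3 subunit that can bind SRC and recruit SYK, had fold changes of 2.57 and 4.32. ITGA7 had 3.25 and 3.36, and MCAM, an adhesion molecule of the immunoglobulin family, had 3.04 and 4.92. FN1, the fibronectin gene, was raised in MDA-MB-468 alone, at 2.61 against 0.897 in MDA-MB-231. Among the cadherins and catenin, CDH6 was raised in both lines (2.75 and 4.97), CDH11 was raised in MDA-MB-468, at 4.37 against 1.31, and CTNNA1, the alpha-catenin gene, had fold changes of 0.996 and 0.820.

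Among the downstream and restraining genes of the list, HRAS, MYC and PLAUR were neither raised nor lowered in either line. HRAS, a small GTPase gene, averaged -0.040 on the log2 fold scale in MDA-MB-231 cells, against -0.44 in the other line. For MYC, a growth-promoting transcription factor gene, the means were -0.012 and -0.34, and for PLAUR, the urokinase receptor gene, they were 0.13 and 0.11. CD82, a tetraspanin that restrains motility, was lowered in MDA-MB-468, to a fold change of 0.433, from 0.244 to 0.596, and stood at 0.973 in MDA-MB-231. It was the 1 lowered gene of the list, and 0 were lowered with ACTB, GAPDH or HPRT1 as the reference, without control 4, or when each comparison had to pass the fold.

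SYK is abundant in macrophages, and 9 genes of the array that macrophages express were examined beside it (CCL7, CST7, CTSL, CXCR2, IL18, IL1B, MMP9, PLAUR and TNFSF10). Of these, 5 were raised in MDA-MB-231 cells and 4 in MDA-MB-468, and 0 were lowered in either line, beside 31% and 27.4% raised and 3.57% lowered over all target genes. In MDA-MB-231 their median log2 fold change was 1.55, 0.82 and 1.89 with controls 2, 3 and 4, beside SYK values of 1.74, 1.04 and 1.78. Both were lowest with control 3, as was the median of all 84 target genes, at 0.37, -0.038 and 0.39. With GAPDH as the reference SYK was instead lowest with control 2, at 1.34, 1.53 and 1.60. In MDA-MB-468 the medians of the 9 genes were 0.78, 0.72 and -0.48, beside SYK values of -0.72, -0.48 and -1.43. Within MDA-MB-468, CCL7, IL1B, MMP9 and TNFSF10 were raised, with fold changes of 4.08, 2.87, 4.38 and 4.02, while SYK was below 1 in each comparison. The other 5 were neither raised nor lowered there, with fold changes of 1.12 for IL18, 1.08 for CXCR2 and PLAUR, 0.898 for CTSL and 0.849 for CST7. CXCR2 was raised in MDA-MB-231 alone, at 4.41, as SYK was, whereas CST7, the cystatin F gene of leukocytes, was at 0.963 there. The part of macrophage RNA in the SYK values of MDA-MB-231 was not tested.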

How the data were processed

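Total RNA was reverse transcribed and measured on the RT2 Profiler Human Tumor Metastasis PCR array (SYBR Green), with 96 wells for 84 target genes, 5 housekeeping genes and 7 control wells. The authors analyzed threshold cycles with GeneGlobe and deposited linear fold ratios (2 to the power of minus the difference in delta Ct, CM over unstimulated), in which the 5 housekeeping genes average to 1 in every column. A further unnumbered column per line was checked to be the mean of the 3 numbered ones (largest log2 difference 0.000188) and was not used as a replicate. Of per-sample threshold cycles, 16 columns were not used, because their headers match no sample label. The limma fit of unstimulated cells planned on them was therefore not run, depth behind each ratio is unknown, and precision is limited by having 3 ratios per line.

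Ratios were log2 transformed and divided by ACTB (MDA-MB-231) or RPLP0 (MDA-MB-468), the genes that the study set to 1 in each line. Wells were paired with symbols through the study's plate list. SYK, SRC, the lists and the counting rule were chosen with earlier results of these data known. Named genes are SYK and SRC, the housekeeping, control and line identity genes, the listed pathway and macrophage genes, genes with the same pattern, and the 3 with the highest Pearson's r to each. CXCR4 and DENR were added once their values had been seen. Some genes of the array enter counts but are not reported by name. Alternatives were other references, leaving out each comparison and a stricter fold rule. The counting rule was tested on simulated data. Python 3.11.15, numpy 2.4.6, pandas 2.3.3 and matplotlib 3.10.9 were used.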

Additional observations from a re-analysis of the deposited data

Results flagged for a closer look

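SYK and SRC had every comparison of MDA-MB-231 above 1 and every comparison of MDA-MB-468 below 1. The mean log2 fold change was higher in MDA-MB-231 by 2.40 for SYK and by 0.82 for SRC. The difference between the lines was not tested, since both genes were chosen for it.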

How the results depend on the processing

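SYK kept opposite directions under all 7 other housekeeping references, and SRC under 2 of them, RPLP0 and the mean of the 5 genes. With B2M, the mean log2 fold change in MDA-MB-468 was -2.78 for SYK and -2.66 for SRC, and the difference between the lines was 4.49 and 2.91. The SRC mean in MDA-MB-231 was 0.26 with B2M, 0.041 with GAPDH, 0.26 with HPRT1, 0.27 with RPLP0, 0.18 with the mean of the 5 genes and 0.16 with the mean of the 4 without B2M. Leaving out 1 comparison gave SYK means from 1.39 to 1.76 in MDA-MB-231 and from -1.07 to -0.60 in MDA-MB-468, and SRC means from 0.062 to 0.083 and from -1.09, without control 2, to -0.47, without control 3. The difference between the lines then ran from 2.12 to 2.64 for SYK and from 0.54 to 1.17 for SRC. SYK minus SRC ran from 1.33 to 1.68 in MDA-MB-231 and from -0.61 to 0.14 in MDA-MB-468, the latter without control 2.

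Genes with the opposite pattern numbered 1 with ACTB, 20 with B2M, 1 with HPRT1, 5 with RPLP0, 8 with the mean of the 5 genes, and from 3 to 9 with 1 comparison left out, 9 being without control 3 of MDA-MB-231. In the pathway list, lowered genes of MDA-MB-468 numbered 0 with ACTB, GAPDH or HPRT1 and 0 with the fold required in each comparison, against 12 lowered and 2 raised with B2M. As B2M moves every gene of this line down alike, the B2M counts show nothing particular to the list. Without 1 comparison, from 0, without control 4, to 1 were lowered there, the 1 being CD82, and raised genes stayed at 8 in MDA-MB-231 cells and 10 in MDA-MB-468.

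For the pathway list, all references but the mean of the 4 genes without B2M were chosen after seeing the data, as were 2 further references, the median target gene and the reverse transcription wells. With the control wells, the mean was 1.02 for SYK and -0.43 for SRC in MDA-MB-231, 1 gene had the opposite pattern and 5 pathway genes were raised in MDA-MB-231. These wells move every gene of MDA-MB-231 down by 0.50 on average, and the share of all target genes raised was not counted with them. With the median as reference, SRC in MDA-MB-231 was at -0.17. No paired analysis was possible because the values had chosen the genes and come from no test, so there was no unpaired fit to set beside it, and each deposited ratio already sets a CM sample against a control sample.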
